A study of Mus musculus with 6 samples.

Results

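The integrin subunits that form the alpha-v family, Itgav with the beta chains Itgb1, Itgb3, Itgb5, Itgb6 and Itgb8, were followed by cell class in photothrombotic lesions of the mouse cortex. They were chosen by name, as the alpha-v subunit and the 5 beta chains that pair with it, and make up 6 of the 32285 genes in the count matrices. Each had at least 1 unique molecular identifier (UMI, 1 counted RNA molecule) in all 6 libraries. In photothrombotic injury, light on a circulating dye closes the cortical vessels and leaves a focal ischaemic lesion. Tissue was dissected from the lesion, with the brain tissue that stayed attached to it, either 7 or 21 dpi (days post-injury), and DAPI-sorted nuclei were sequenced by droplet 3' RNA-seq in 1 library per group, each pooling 1 male and 1 female mouse.

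All mice were adults on a C57BL/6 background. Ctrl mice were labelled wild type with no treatment. ADWA11 mice received ADWA11, an antibody that blocks the αvβ8 integrin, by intraperitoneal injection from the day of injury and then weekly. Tgfbr2-cKO mice carried Col1a2(creER) and Tgfbr2(flox), so that tamoxifen deleted the type 2 TGFβ receptor from cells using a fibroblast collagen promoter, and other cell types kept it. The antibody acts on protein, so the level of Itgb8 RNA does not check the ADWA11 label. With 1 library per group there was no replicate and no test. The intervals given below cover counting error only, and fewer cells of a type, less RNA per cell and differences between mice cannot be told apart from an effect of the treatment.

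TGFβ is secreted in a latent complex in which its propeptide keeps it inactive, tethered to matrix by latent TGFβ binding proteins or to cell surfaces by carriers such as Lrrc32 (GARP) and Nrros (LRRC33). Integrins that contain alpha-v bind an arginine-glycine-aspartate motif in the propeptide and free the cytokine. The beta chain sets where this happens: αvβ6 is known from epithelium, αvβ8 from astrocytes, oligodendrocyte precursor cells (OPCs) and regulatory T cells, and αvβ1, αvβ3 and αvβ5 from fibroblasts, vessels and macrophages. Itgb1 and Itgav also pair with other partners, so RNA for a subunit does not measure a heterodimer.

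The 6 genes lie on 5 chromosomes of GRCm38, the assembly named mm10 by the submitters. Itgav is at chr2:83724397-83806916 on the plus strand and Itgb6 at chr2:60598292-60722643 on the minus strand. Itgb1 is at chr8:128685654-128733200, Itgb3 at chr11:104608000-104670476 and Itgb5 at chr16:33829665-33949338, all on the plus strand, and Itgb8 is at chr12:119158022-119238802 on the minus strand. Their spans run from 47.6 kb for Itgb1 to 124 kb for Itgb6. Because nuclear RNA holds unspliced transcripts, the order of different genes within a class is read mainly per length below. CPM (UMIs of a gene scaled to the summed UMIs of the group of nuclei) are used mainly within a gene.

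After filtering, 60478 nuclei remained, 6416 to 12752 per library, with 64798965 to 140310354 deposited UMIs per library and median depths of 4601.5 to 8222.5 UMIs per barcode. Clusters were named from marker genes, with the 6 members kept out of the genes used for clustering. Of the nuclei, 53861 fell into 10 classes (fibroblast-like, mural-like, endothelial-like, myeloid-like, T cell-like, astrocyte-like, OPC-like, oligodendrocyte-like, and excitatory and inhibitory neuron-like, written below without the ending), and 6617 stayed in 4 unnamed clusters. The 7 dpi Tgfbr2-cKO library stood apart, with 36.5% excitatory and 21.1% inhibitory neurons against 0.702% and 0.973% in Ctrl at that time, so its whole-library values are given only beside values set to the class make-up of Ctrl. Tgfbr2, the gene targeted in Tgfbr2-cKO, was 318 CPM in Ctrl fibroblasts, 245.5 in those of ADWA11 and 229.7 in those of the knockout at 7 dpi. The 21 dpi levels were 222, 193 and 186 CPM in the same order. Reads at its 3' end may lie outside the deleted part, so these levels do not check the label. Of 66803 distinct barcodes, 553 occurred in more than 1 library. A class level is given where a library held at least 20 nuclei of the class.

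Itgav, the shared alpha chain, was found in every class, and myeloid cells had the highest median over the libraries, with a range that overlapped that of the next class. In ADWA11 at 21 dpi, T cells (289 CPM) and OPCs (265 CPM) lay above them. Myeloid levels at 7 dpi were 862 CPM in Ctrl (95% Poisson interval 850.1 to 873), 672 in ADWA11 and 669 in Tgfbr2-cKO, and at 21 dpi 467, 249 and 323 CPM. All 3 libraries of 7 dpi lay above all 3 of 21 dpi. OPCs had 394 CPM in the 7 dpi Ctrl library and 145 to 265 CPM in the other 5. Fibroblasts covered a narrow range of 151 to 237 CPM. Astrocytes had 345 CPM in the 7 dpi Ctrl library and 129.8 to 198 CPM elsewhere. Mural cells had 141 to 375.5 CPM, endothelial cells 165 to 292 and T cells 195 to 289 CPM. Neurons were lowest, at 42.0 to 101.5 CPM, and only the step from oligodendrocytes (109 to 215 CPM) to neurons separated neighbours in the order by median without an overlap of their ranges.

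**Figure D1:**
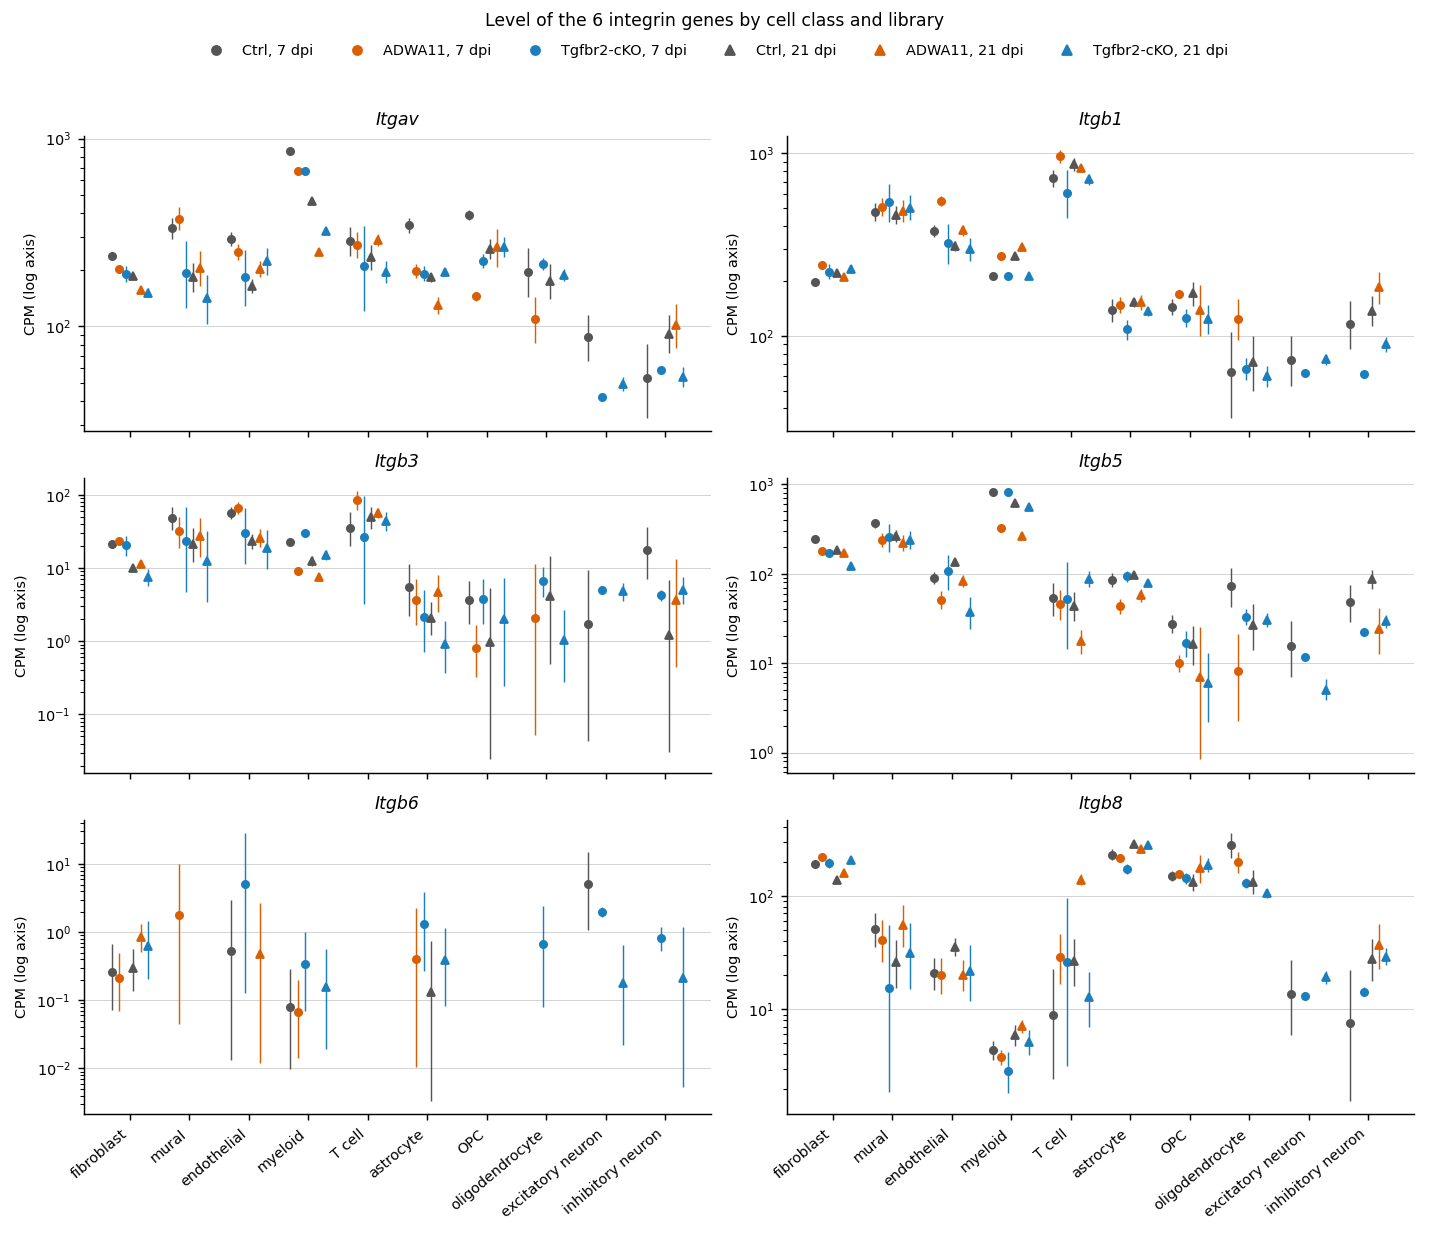
Level of the 6 subunit genes in each cell class, as CPM on a log axis, with 1 point per library that held at least 20 nuclei of the class and bars for the 95% Poisson interval of the count. Libraries at 0 cannot be drawn on this axis. Itgb8 lay at 173 to 286 CPM in astrocytes and 2.86 to 7.13 CPM in myeloid cells. Itgb5 lay at 43.4 to 95.9 CPM in astrocytes and 265 to 819 CPM in myeloid cells.

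Itgb8, the beta chain of the integrin that ADWA11 blocks, was a gene of astrocytes, fibroblasts and the oligodendrocyte lineage in these lesions. At 7 dpi astrocytes had 231 CPM in Ctrl (205 to 259), 216 in ADWA11 and 173 in Tgfbr2-cKO. The 21 dpi levels in this order were 286, 257 and 279 CPM. Fibroblasts had 189.5 CPM (183 to 197), 219 and 196 CPM at 7 dpi and 138, 159 and 208 CPM at 21 dpi. OPCs lay between 132 and 186 CPM in all 6 libraries. The ranges of these 3 classes overlapped, so their order by median (244, 192.5 and 152 CPM) did not go beyond the spread between libraries. Oligodendrocytes ran from 104.9 to 280.4 CPM, the highest value resting on 41 nuclei of the 7 dpi Ctrl library.

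Mural cells carried 15.4 to 55.3 CPM of Itgb8 and endothelial cells 19.95 to 35.5 CPM, except for 0 UMIs in the 37 endothelial nuclei of the 7 dpi Tgfbr2-cKO library, which allows up to 15.3 CPM. Myeloid cells had 2.86 to 7.13 CPM. Thinned to 2000 UMIs per nucleus, 26.1% to 38.2% of astrocytes and 18.2% to 26.0% of fibroblasts had an Itgb8 UMI, against 0.435% to 1.33% of myeloid nuclei. Unthinned, the shares were 50.4% to 70.1%, 40.2% to 50.95% and 0.921% to 2.86%. At a fixed depth the Itgb8 share of astrocytes and fibroblasts was thus far above that of myeloid nuclei, the class with the lowest level, where free RNA alone could give a UMI.

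Itgb5, the vitronectin-binding partner of alpha-v, was highest in myeloid cells among the named classes of every library. In Ctrl the myeloid level was 819 CPM at 7 dpi (808 to 831) and 621 CPM at 21 dpi (608 to 634). The ADWA11 levels were 324 and 265 CPM, and those of Tgfbr2-cKO 814.5 and 555 CPM. The ADWA11 libraries were thus the low pair at both times. Mural cells followed at 223 to 365 CPM and fibroblasts at 122 to 246 CPM. Endothelial cells and astrocytes had medians of 85.8 and 82.6 CPM over the libraries, T cells 49.2, and OPCs 6.04 to 27.6 CPM.

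Itgb1, the broadly used chain that also serves collagen, laminin and fibronectin receptors, led in T cells at 606 to 963.5 CPM. That range lay above mural cells (461 to 540.3 CPM), which were followed by endothelial cells (299 to 548 CPM). Myeloid cells (213 to 307 CPM) and fibroblasts (198 to 243 CPM) overlapped. Astrocytes and OPCs lay at 108.5 to 171 CPM, below the fibroblast range. Oligodendrocytes and neurons were lower still in most libraries, from 60.2 CPM upward.

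Itgb3, the chain of αvβ3 and of the platelet fibrinogen receptor, was low throughout. T cells had 26.4 to 84.7 CPM, endothelial cells 18.7 to 66.9, mural cells 12.5 to 48.0, fibroblasts 7.45 to 23.4 and myeloid cells 7.62 to 30.2 CPM. Astrocytes, OPCs and oligodendrocytes stayed between 0 and 6.64 CPM. Itgb6, the epithelial chain, gave 261 UMIs over the 60478 nuclei. Of these, 141 lay in excitatory neurons, 136 of them in the neuron-rich 7 dpi Tgfbr2-cKO library, at 1.97 CPM. Fibroblasts held 42 Itgb6 UMIs, with 0 to 19 per library and levels of 0 to 0.847 CPM. OPCs and T cells held 0 Itgb6 UMIs in all 6 libraries, which in the best covered library of each class allows up to 0.348 and 1.14 CPM.

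Per 100 kb of gene span in Ctrl at 7 dpi, myeloid cells had 1044 CPM of Itgav, 684.5 of Itgb5, 449 of Itgb1, 36.8 of Itgb3 and 5.37 of Itgb8. Astrocytes had 418 of Itgav, 290.2 of Itgb1, 286 of Itgb8, 71.6 of Itgb5 and 8.73 CPM of Itgb3 per 100 kb. Fibroblasts had 416 of Itgb1, 287 of Itgav, 235 of Itgb8 and 206 of Itgb5. The leading beta chain thus differed by class on this scale: Itgb5 in myeloid cells, Itgb1 and Itgb8 at near-equal levels in astrocytes, and Itgb1 ahead of Itgb8 and Itgb5 in fibroblasts. Per kb of exon the order changed, since Itgb5 has 3.55 kb of exon and Itgb8 11.1 kb. On that scale the fibroblast values were 69.3 CPM for Itgb5, 48.4 for Itgb1 and 17.1 for Itgb8, and the astrocyte values 24.1, 33.8 and 20.9 CPM. Undivided, the fibroblast values were 246 CPM for Itgb5, 198 for Itgb1 and 189.5 for Itgb8. The order of the genes within a class thus depended on the scale.

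The cells that held most of each gene's molecules followed both level and abundance. In Ctrl at 7 dpi, myeloid cells were 50.7% of nuclei and held 72.2% of Itgav and 76.3% of Itgb5 UMIs, but 2.41% of Itgb8 UMIs. Fibroblasts were 21.6% of nuclei and held 64.7% of Itgb8 UMIs. OPCs held 9.22% and astrocytes 6.60% of Itgb8. At 21 dpi in Ctrl, fibroblasts held 57.0% and astrocytes 29.4% of Itgb8, at 32.5% and 9.38% of nuclei. In the later ADWA11 library, fibroblasts held 65.9%, astrocytes 13.2% and T cells 6.75% of Itgb8 UMIs. In the later Tgfbr2-cKO library, astrocytes held 43.4% and fibroblasts 33.6%. The shares depend on which cells were dissected and sorted.

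Co-detection of the alpha chain with a beta chain in 1 nucleus was read after thinning to 2000 UMIs. Itgav and Itgb5 were found together in 45.5% of Ctrl myeloid nuclei at 7 dpi (exact binomial interval 43.9 to 47.1), 22.6% in ADWA11 and 38.0% in Tgfbr2-cKO. At 21 dpi the myeloid shares were 31.0%, 13.7% and 23.5%. The ADWA11 share was the lowest of the 3 libraries at each time.

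Itgav and Itgb8 were found together in 6.85% to 10.0% of astrocytes, 4.74% to 8.31% of fibroblasts and 5.57% to 16.1% of OPCs, the highest of which rests on 31 nuclei. In myeloid nuclei the share was 0.218% to 0.724%. In T cells it was 7.32% in ADWA11 at 21 dpi (5.47 to 9.57) and 0.855% to 2.26% in the other libraries with enough nuclei. Without thinning, 28.5% to 44.7% of astrocytes and 26.1% to 38.3% of fibroblasts had a UMI of both genes, so the absolute shares were set by depth.

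The blockade was read by comparing ADWA11 with Ctrl at each time. A gene was called in a class when its level differed by at least 1.5-fold, the 95% interval of the ratio excluded no difference, both libraries together held at least 20 UMIs of it and each held at least 20 nuclei. At 7 dpi, 3 of 37 pairs of member and class that met the minimum were higher and 10 were lower, where 8.89% and 7.24% of all gene and class pairs were called higher and lower. At 21 dpi, 3 of 38 were higher and 8 lower, against 6.96% and 8.78% of all pairs. Pairs of 1 gene share their libraries, and neither count is a test.

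**Figure D2:**
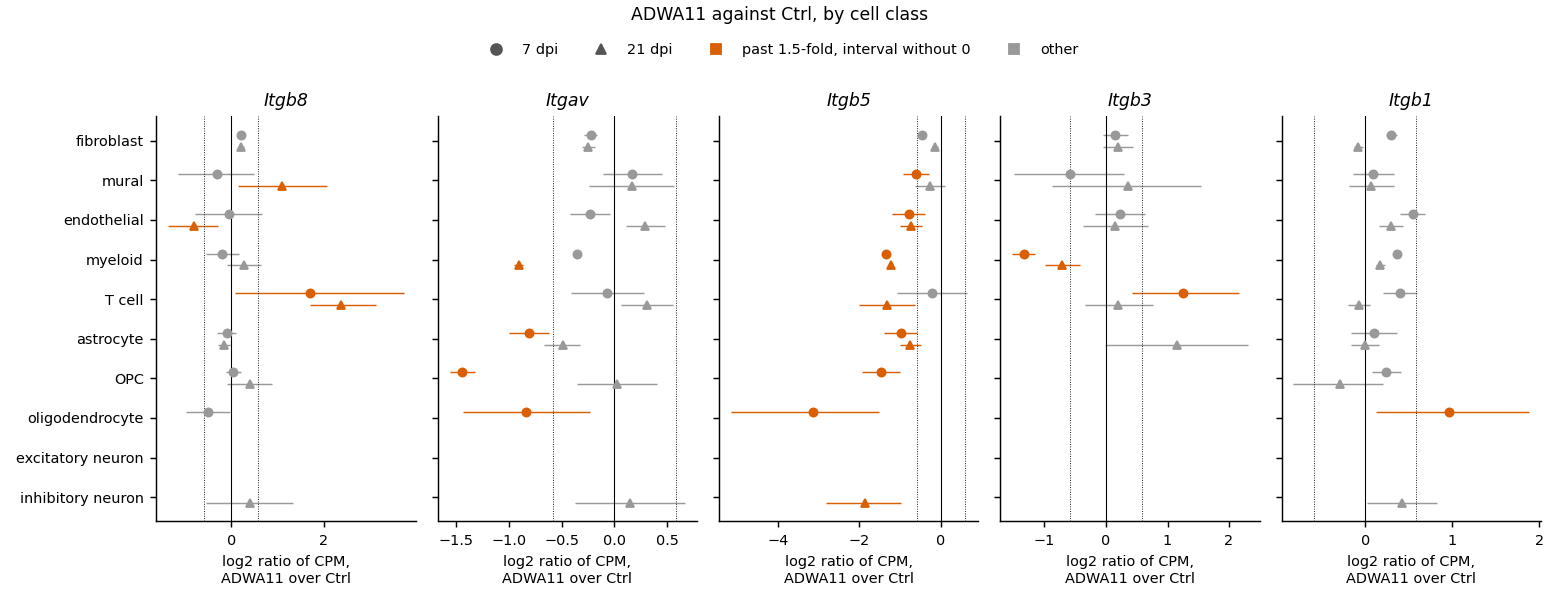
Ratio of ADWA11 over Ctrl on the log2 scale for Itgb8, Itgav, Itgb5, Itgb3 and Itgb1 by cell class and time, with exact 95% intervals for counting error. Dotted lines mark 1.5-fold and orange points passed it with an interval without 0. Itgb5 in myeloid cells lay at -1.34 and -1.23 at the 2 times, and Itgb8 in astrocytes at -0.10 and -0.15.

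Itgb8, the RNA of the blocked integrin's own beta chain, differed little in the classes that carry most of it. In astrocytes ADWA11 was at -0.10 (-0.30 to 0.12) on the log2 scale against Ctrl at 7 dpi and -0.15 (-0.27 to -0.03) at 21 dpi. In fibroblasts it was at 0.21 (0.14 to 0.27) and 0.20 (0.14 to 0.27). In OPCs it was at 0.04 (-0.12 to 0.20) and 0.40 (-0.10 to 0.88), the second on 31 ADWA11 nuclei. These intervals lie within 1.5-fold in astrocytes and fibroblasts at both times and in OPCs at 7 dpi. The astrocyte levels differed between the mice of a library as well: in Ctrl at 7 dpi, female nuclei had 256 and male nuclei 174 CPM of Itgb8. In male astrocyte nuclei alone the 7 dpi ratio was 0.44 (0.07 to 0.83), opposite in sign and with an interval that reached past 1.5-fold.

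Over all nuclei, Itgb8 was 84.5 CPM in Ctrl and 94.5 CPM in ADWA11 at 7 dpi, and 110.5 and 76.7 CPM at 21 dpi. The log2 ratio of the later pair was -0.53 (-0.58 to -0.47). At the class make-up of the Ctrl library it was 0.11. Astrocytes were 9.38% of Ctrl and 3.59% of ADWA11 nuclei at 21 dpi, and myeloid cells, with little Itgb8, 23.8% and 47.3%. At 21 dpi the ADWA11 library was thus lower in Itgb8 as a whole by more than within astrocytes (-0.15), and fibroblasts had the opposite sign (0.20).

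Itgb5 in myeloid cells was lower in ADWA11 than in Ctrl at both times. Its log2 ratio was -1.34 (-1.37 to -1.31) at 7 dpi and -1.23 (-1.27 to -1.19) at 21 dpi, where the median over all genes tested in myeloid cells was 0.04 and -0.08. Both mice of each library showed it. At 7 dpi female and male myeloid nuclei had 786 and 845 CPM in Ctrl and 302 and 344 CPM in ADWA11. At 21 dpi they had 604 and 647 CPM in Ctrl and 284 and 259.9 CPM in ADWA11. In Tgfbr2-cKO the myeloid ratio to the same Ctrl libraries was -0.01 (-0.05 to 0.03) and -0.16 (-0.21 to -0.12).

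Itgb5 was also called lower in ADWA11 at 7 dpi in OPCs (27.6 against 9.98 CPM), astrocytes (85.7 against 43.4), oligodendrocytes (72.2 against 8.25), endothelial cells (89.1 against 51.5) and mural cells (365 against 240.3). The oligodendrocyte call rests on 41 Ctrl and 58 ADWA11 nuclei. Against the same Ctrl nuclei, the Tgfbr2-cKO ratio turned to 0.52 when the 5 top nuclei were left out. Fibroblasts had 246 CPM in Ctrl and 180.4 in ADWA11, a log2 ratio of -0.45 that stayed under 1.5-fold. At 21 dpi it was called lower in astrocytes (95.9 against 57.3 CPM), endothelial cells (136.9 against 82.5), T cells (43.9 against 17.5) and inhibitory neurons (86.5 against 24.0). The inhibitory neurons came from different clusters, with 172 nuclei of Ctrl and 3 of ADWA11 in cluster 14, and 50 and 66 in cluster 23. Cluster 23 also had 5 neural progenitor markers raised, and the part of make-up in this call was not tested. The T cell class held 49 myeloid-marked nuclei of 293 in Ctrl and 40 of 1036 in ADWA11, and its ratio of -1.33 was -0.97 at the Ctrl make-up of the sub-clusters with at least 20 nuclei in both. Mural cells and fibroblasts were at -0.25 and -0.14. Myeloid nuclei held most Itgb5 and were the largest class of these libraries at 7 dpi. Whether free myeloid RNA or mixed barcodes set part of the low levels in other classes was not tested. Marked doublets were 16.1% of astrocyte, 21.8% of endothelial and 15.0% of mural nuclei, and these classes were not sub-clustered.

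Itgav was lower in ADWA11 in glia at 7 dpi. OPCs had 394 CPM in Ctrl (371 to 418) and 145 CPM in ADWA11 (137 to 153), a log2 ratio of -1.44 (-1.56 to -1.33). Female and male OPC nuclei had 369 and 453 CPM in Ctrl and 160.4 and 130.3 CPM in ADWA11. Astrocytes were at -0.81 (-0.99 to -0.62) and oligodendrocytes at -0.84. The Tgfbr2-cKO library of 7 dpi, with its neuron-rich make-up, was also lower than Ctrl in OPCs (-0.82) and astrocytes (-0.85), so the 7 dpi Ctrl library was the high one of 3. At 21 dpi OPC levels were 259, 265 and 264 CPM and did not separate.

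In myeloid cells Itgav was at -0.36 (-0.38 to -0.33) in ADWA11 at 7 dpi, under 1.5-fold, and at -0.91 (-0.96 to -0.86) at 21 dpi, a call. In fibroblasts it was at -0.22 and -0.25, with no call. Itgb3 in myeloid cells was 23.0 CPM in Ctrl and 9.08 in ADWA11 at 7 dpi, and 12.5 and 7.62 CPM at 21 dpi, called lower at both times. At 21 dpi the ratio in female nuclei alone was 0.26 (-0.18 to 0.71), opposite in sign. In T cells at 7 dpi Itgb3 was called higher (35.5 against 84.7 CPM). The Itgav and Itgb3 myeloid values are given by sub-cluster below.

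Itgb1 was called once, higher in the 58 oligodendrocyte nuclei of the 7 dpi ADWA11 library (123.8 against 63.7 CPM). Its other ratios at 7 dpi were small and above 0 in endothelial cells (0.54), T cells (0.40), myeloid cells (0.36) and fibroblasts (0.30). Itgb6 passed the minimum of UMIs in fibroblasts at 21 dpi only, with 9 UMIs in Ctrl and 19 in ADWA11, a log2 ratio of 1.52 (0.31 to 2.85). The remaining calls for Itgb8 at 21 dpi were mural cells, higher at 55.3 against 25.9 CPM, and endothelial cells, lower at 20.3 against 35.5 CPM. The first was -0.36 as a mean per nucleus and the second 0.34 in male nuclei, both opposite in sign. With 88 and 154 mural nuclei and 112 mural Itgb8 UMIs over 6 libraries, the mural call rests on few molecules.

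The myeloid class was sub-clustered together with unnamed cluster 16, which gave 11 sub-clusters, and the libraries drew on different ones. Sub-cluster 0 was microglia-like (P2ry12, Sall1 and Tmem119 raised) and held 1756 nuclei of Ctrl and 103 of ADWA11 at 7 dpi, and 1184 and 62 at 21 dpi. Sub-cluster 3, led by Cfap299, held 70 and 2583 nuclei at 7 dpi. Sub-cluster 1, with the lysosomal and osteoclast-type genes Ctsk, Acp5 and Atp6v0d2 raised, held 264 nuclei of Ctrl and 3333 of ADWA11 at 21 dpi. Sub-cluster 2, led by Dach1, held 1584 and 754 nuclei at 7 dpi and 1002 and 122 at 21 dpi. Class sums of ADWA11 and Ctrl myeloid cells therefore compare different mixes of sub-clusters. Whether these are different cells or the same cells in another state was not tested. Weighting to the Ctrl make-up, as used below, cannot tell these apart.

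Itgb5 was lower in ADWA11 within these sub-clusters too. In the microglia-like nuclei it was 917 CPM in Ctrl and 388 in ADWA11 at 7 dpi, and 764 and 143 CPM at 21 dpi. In the Dach1-led nuclei it was 865 and 323 CPM at 7 dpi, and 619.9 and 217 CPM at 21 dpi. Proliferating nuclei had 653 and 255 CPM at 7 dpi and 476 and 195 CPM at 21 dpi. Border macrophage-like nuclei (Cd163, Mrc1, F13a1) did not share the gap at 7 dpi, with 343 and 348.5 CPM, and had 332 and 192 CPM at 21 dpi. Itgb5 was called lower in 7 of 8 sub-clusters at 7 dpi, with log2 ratios of -2.61 to 0.02, and in 8 of 9 at 21 dpi, with ratios of -2.42 to -0.53. The tallies of sub-clusters here and below include nuclei of cluster 16, which lie outside the myeloid class.

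In Tgfbr2-cKO, of the 6 sub-clusters that met the minimum at 7 dpi, 1 was called higher and 0 lower. At 21 dpi 0 of 8 were called higher and 2 lower. The microglia-like level there was 868.5 CPM at 7 dpi and 622.5 CPM at 21 dpi. Weighted to the sub-cluster make-up of the Ctrl library, the ADWA11 ratio of Itgb5 in myeloid cells was -1.27 at 7 dpi and -1.67 at 21 dpi, so that the ratio at equal make-up was also past 1.5-fold. The microglia-like and Dach1-led ADWA11 nuclei were few at 21 dpi (62 and 122) and shared their library with many nuclei of other sub-clusters. The part of free RNA and of mixed barcodes in these values was not tested.

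**Figure D3:**
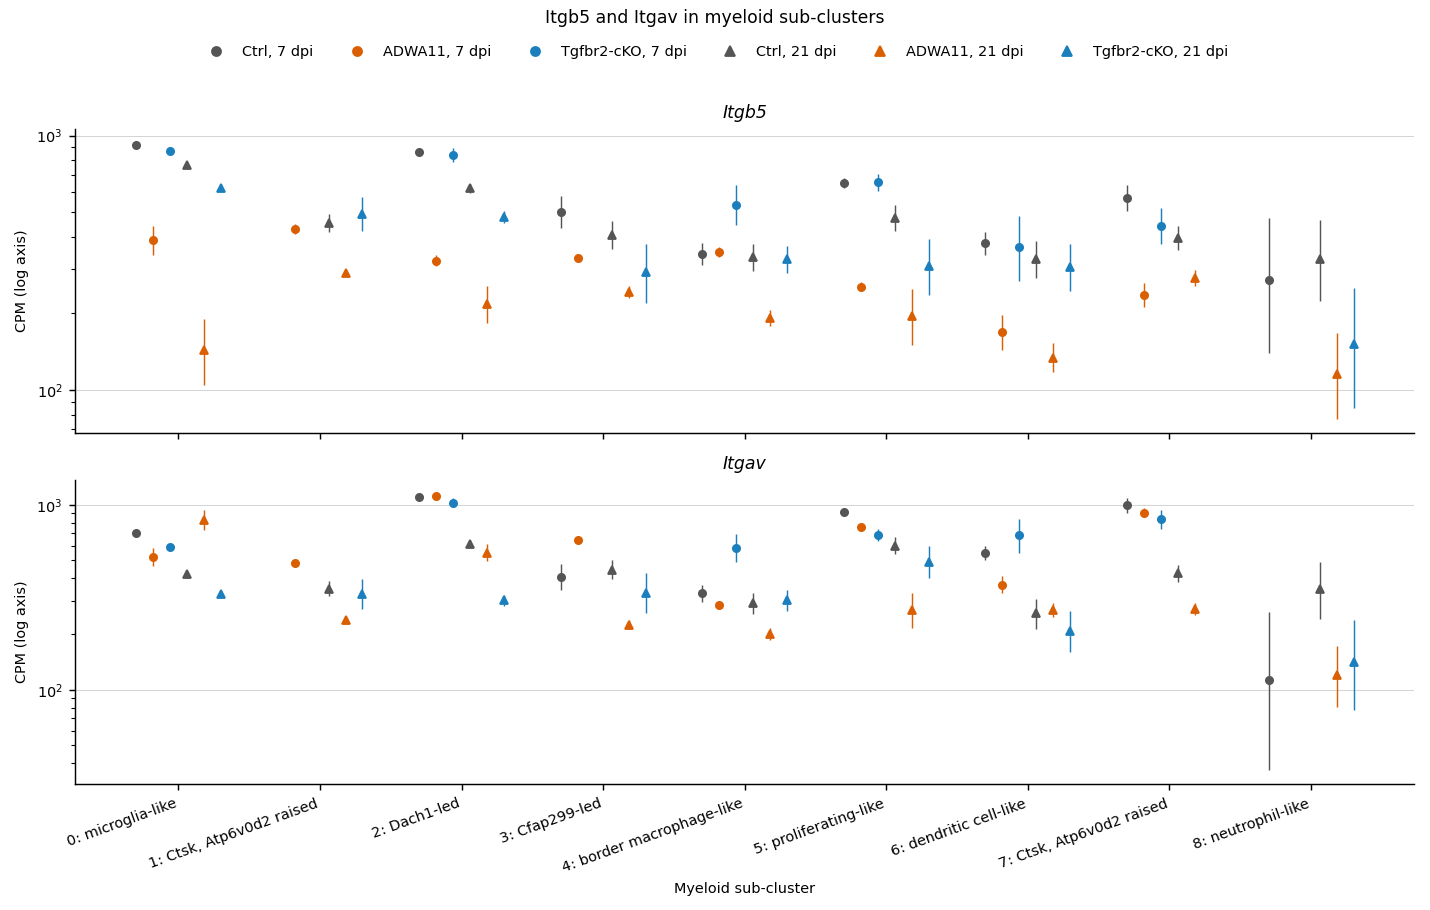
Levels of Itgb5 and Itgav in the myeloid sub-clusters, as CPM on a log axis with 95% Poisson intervals, for libraries with at least 20 nuclei of the sub-cluster. Itgb5 in microglia-like nuclei (sub-cluster 0) was 917 CPM in Ctrl and 388 CPM in ADWA11 at 7 dpi, while the border macrophage-like nuclei (sub-cluster 4) had 343 and 348.5 CPM.

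Itgav was called higher in 1 and lower in 0 of 8 sub-clusters at 7 dpi, with log2 ratios of -0.57 to 0.66. At 21 dpi it was below Ctrl in 7 of 9, called lower in 4 and higher in 1, with ratios of -1.54 to 0.98. Itgav in the microglia-like nuclei was 707 CPM in Ctrl and 523 in ADWA11 at 7 dpi, but 420.1 and 828 CPM at 21 dpi. The Dach1-led nuclei had the highest Itgav of the large sub-clusters at 7 dpi, 1103 CPM in Ctrl, 1116 in ADWA11 and 1026 in Tgfbr2-cKO. The sub-clusters that filled the ADWA11 library at 21 dpi had less, 239.5 CPM in sub-cluster 1 and 225 CPM in sub-cluster 3. At the Ctrl sub-cluster make-up, the ADWA11 ratio of Itgav was -0.16 at 7 dpi and 0.29 at 21 dpi, the second opposite in sign to that of the class sum and resting in part on the 62 microglia-like and 122 Dach1-led ADWA11 nuclei. Itgb3 likewise was 0.21 and 1.72 at the Ctrl make-up, where 106 CPM in the 122 Dach1-led ADWA11 nuclei of 21 dpi stood against 9.89 CPM in Ctrl.

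Itgb8 was at 0 to 8.84 CPM in 6 of the 8 myeloid sub-clusters with over 500 nuclei, wherever at least 20 nuclei were present. The dendritic cell-like sub-cluster (Flt3, Cd209a, Ccr7) was higher at the later time. There it was 8.21, 4.39 and 0 CPM at 7 dpi and 38.6, 12.5 and 50.2 CPM at 21 dpi in Ctrl, ADWA11 and Tgfbr2-cKO, on 0 to 22 UMIs, and ADWA11 was called lower at 21 dpi. In the microglia-like nuclei it was 1.77 to 6.09 CPM. In the Dach1-led nuclei it was called higher in ADWA11 at both times, at 5.18 against 8.82 CPM and 10.2 against 26.2 CPM, the last on 17 UMIs.

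Fibroblasts carried Itgb8 unevenly. Sub-cluster 1 was myofibroblast-like, with Cthrc1, Acta2, Postn, Fn1 and Tagln raised, with 245 CPM of Itgb8 in Ctrl at 7 dpi, 288 in ADWA11 and 296 in the receptor knockout. It held 1007, 1216 and 130 nuclei at 7 dpi and 75, 11 and 3 at 21 dpi, when the Ctrl level was 337 CPM. Arachnoid-like nuclei (sub-cluster 2: Cldn11, Cdh1, Slc6a20a, Trpm3) had 89.9, 144 and 37.4 CPM at 7 dpi and 182, 197 and 112 CPM at 21 dpi. Leptomeningeal-like nuclei (sub-cluster 4: Lama1, Lamc3, Aldh1a2, Col15a1) had 109.6, 131 and 127 CPM, then 180.5, 322.5 and 86.0 CPM.

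The myofibroblast-like nuclei were the highest fibroblasts for Itgb8 at 7 dpi in all 3 libraries. At 21 dpi the Slc47a2-led sub-cluster 0 held 1840 of 4146 Ctrl, 2143 of 2768 ADWA11 and 79 of 890 Tgfbr2-cKO fibroblasts, at 146, 150.0 and 189.7 CPM of Itgb8. The Rbpjl-led sub-cluster 3 had 108 and 209 CPM at 7 dpi and 88.2 and 55.6 CPM at 21 dpi in Ctrl and ADWA11. It held 164 and 77 of their nuclei at 7 dpi and 1286 and 99 at 21 dpi. Within sub-clusters, Itgb8 was called higher in ADWA11 in 2 of 5 at 7 dpi, and higher in 1 and lower in 1 of 4 at 21 dpi. At the Ctrl make-up the fibroblast ratio was 0.29 at 7 dpi and -0.01 at 21 dpi.

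**Figure D4:**
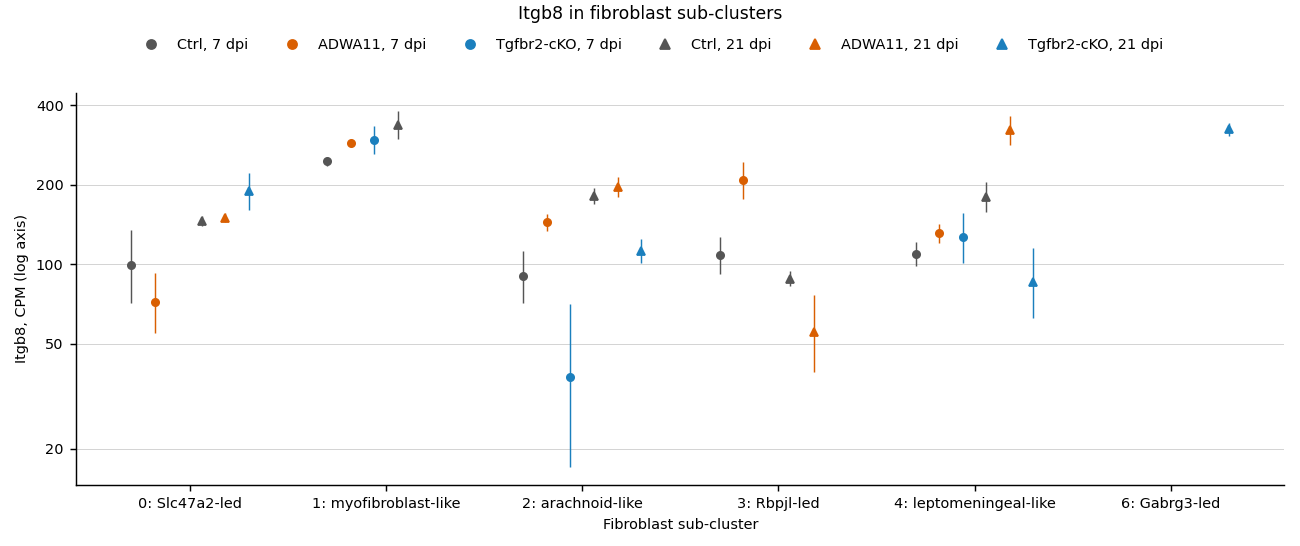
Itgb8 in the fibroblast sub-clusters, as CPM on a log axis with 95% Poisson intervals, for libraries with at least 20 nuclei of the sub-cluster. Myofibroblast-like nuclei (sub-cluster 1) had 245 to 296 CPM at 7 dpi, above the other sub-clusters of each library, and the Gabrg3-led nuclei of Tgfbr2-cKO at 21 dpi had 324 CPM.

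Tgfbr2-cKO at 21 dpi was the 1 library in which fibroblast Itgb8 passed 1.5-fold against Ctrl, with 208 against 138 CPM and a log2 ratio of 0.59 (0.51 to 0.67). Under TMM and DESeq2 scaling it was 0.54 and 0.57, no longer past 1.5-fold. It came with sub-cluster 6, a Gabrg3-led group that held 308 of the 890 fibroblast nuclei of this library and at most 13 of any other, at 324 CPM. In the sub-clusters shared with Ctrl, Itgb8 was called lower in 2 of 3 and was at 0.38 in the third, and at the Ctrl make-up of these 3 the ratio was 0.09. The 2 mice also differed, with 117 CPM in female and 277 CPM in male fibroblast nuclei. In female nuclei alone, the ratio to Ctrl was -0.25, opposite in sign. The male and female nuclei thus did not share the direction of this call.

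Itgb1 and Itgav were more even in fibroblasts. Itgb1 ran from 117 to 278 CPM over sub-clusters and libraries and Itgav from 137 to 346.5 CPM. Itgb3 was not even, with log2 ratios of -1.54 to 0.64 between the times in Ctrl and a lower call in 3 of 5 sub-clusters. In ADWA11 at 7 dpi, all 5 sub-clusters had less Itgb5 than Ctrl, with ratios of -0.49 to -0.23, and all 5 had more Itgb1, with ratios of 0.19 to 0.87, 1 of them a call. None of the Itgav and Itgb5 ratios of fibroblast sub-clusters was a call at either time in ADWA11.

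In the oligodendrocyte lineage the lower Itgav of ADWA11 at 7 dpi held within sub-clusters. OPC-like nuclei (Cspg4, Pdgfra, Lhfpl3 and C1ql1 raised) had 498 CPM in Ctrl and 221 in ADWA11, and committed OPC-like nuclei (Bcas1, Gpr17, Enpp6 and Bmp4 raised) had 156 and 87.5 CPM. A sub-cluster led by Kif4 and other division genes had 430.4 and 139.9 CPM. The oligodendrocyte-like sub-cluster with enough nuclei had 255 and 167 CPM, with an interval that included 0. At the Ctrl make-up the OPC ratio was -1.19, beside -1.44 for the class sum. Itgb8 in the same nuclei went the other way or was level, at 214 and 243 CPM in OPC-like and 64.2 and 105.7 CPM in committed OPC-like nuclei, the second a call.

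T cells held Itgb8 unevenly. Their Itgb8 was 8.88, 28.8 and 26.4 CPM at 7 dpi and 26.9, 139 and 12.8 CPM at 21 dpi in Ctrl, ADWA11 and Tgfbr2-cKO. The 7 dpi Tgfbr2-cKO value rests on 2 UMIs in 1 of 28 nuclei. The ADWA11 ratio was 1.70 (0.08 to 3.73) at 7 dpi, on 4 and 17 UMIs, and 2.37 (1.71 to 3.12) at 21 dpi, on 19 and 366 UMIs. The 21 dpi ADWA11 library was the high one of 6. Female and male T cell nuclei of that library had 153 and 155 CPM.

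A sub-cluster of 243 T cell nuclei was led by Foxp3, the lineage factor of regulatory T cells, and Flicr, and Itgb8 was among its 10 leading genes although it was kept out of the clustering. Over all libraries it had 499.6 CPM of Itgb8, with a UMI in 42.0% of nuclei at a median depth of 2568 UMIs. The other 1740 nuclei of the T cell class had 15.9 CPM and 2.07% at a median depth of 2406 UMIs. They include 226 nuclei with 6 myeloid markers raised. Sub-clusters of 255 and 74 nuclei had natural killer-type genes among their leading genes, Klra8 and Ncr1 in the first and Klra6 in the second. The second also had the T cell receptor gene Tcrg-V4 among its leading genes. Neither had a T cell marker raised, and nor did the Foxp3-led sub-cluster. Markers were scored only against the rest of the T cell class, so this does not set these nuclei apart from T cells. Itgav was 536 CPM in the Foxp3-led nuclei and 221 in the others. Itgb1 went the other way, with 508 and 857 CPM, and Itgb5 was 15.9 and 44.5 CPM. Of the 243 nuclei, 203 came from ADWA11 at 21 dpi, so these sums also hold differences between libraries. Within that library Itgav was 532.5 and 222 CPM, Itgb1 494 and 917 CPM, and Itgb5 level at 17.7 and 17.4 CPM. In the 15 Foxp3-led nuclei of Ctrl at 21 dpi, Itgb1 was 942 CPM against 864 in the others, and Itgav 255 against 232. The sub-cluster was unnamed by the marker lists used, and the levels describe it without a test.

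The Foxp3-led sub-cluster held 5, 8 and 1 nuclei at 7 dpi and 15, 203 and 11 at 21 dpi. At 21 dpi it made up 5.12% of the T cells in Ctrl, 19.6% in ADWA11 and 3.79% in Tgfbr2-cKO. In ADWA11 at 21 dpi its Itgb8 level was 543 CPM (484 to 607), and it held 83.9% of the T cell Itgb8 UMIs of that library. In Ctrl it held 2 of 4 such UMIs at 7 dpi and 9 of 19 at 21 dpi (47.4%). In ADWA11 at 7 dpi it held 14 of the 17, found in 3 nuclei, and the other T cells had 5.39 CPM against 4.57 CPM in Ctrl. In the other T cells of 21 dpi, Itgb8 was 15.0 CPM in Ctrl (7.19 to 27.6), 28.6 in ADWA11 (21.8 to 36.9) and 2.84 in Tgfbr2-cKO (0.586 to 8.30). The higher Itgb8 of ADWA11 T cells at 21 dpi therefore came with more Foxp3-led nuclei. The level within such nuclei was also lower in Ctrl, at 229 CPM (104.8 to 434.9) on 9 UMIs in 15 nuclei. The parts of level and of make-up in the T cell ratio were not tested. Over the sub-clusters with at least 20 nuclei in both libraries, which leave out the Foxp3-led one, the ratio was -0.49, a value that comes from leaving out the nuclei with most Itgb8 as well as from weighting.

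**Figure D5:**
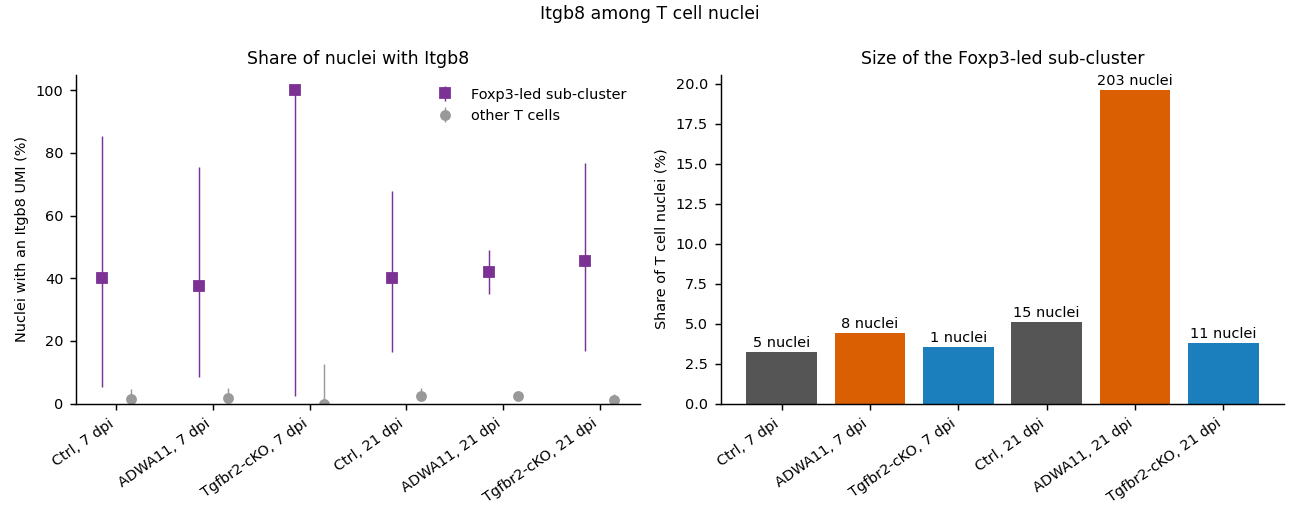
The left panel plots the share of nuclei with an Itgb8 UMI in the Foxp3-led sub-cluster and in the other T cells of each library, with exact binomial 95% intervals, and the right panel plots the Foxp3-led share of T cell nuclei as bars with nuclei counts. The Foxp3-led share was 19.6% in ADWA11 at 21 dpi and 3.23% to 5.12% in the other 5 libraries.

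Tgfbr2-cKO, the loss of the TGFβ receptor in collagen-expressing cells, was read in the same way against the same Ctrl libraries, so its ratios share their denominators with those of ADWA11. At 7 dpi, 0 of 48 member and class pairs were higher and 11 lower, where 9.09% and 8.39% of all pairs were called. At 21 dpi, 2 of 42 were higher and 6 lower, against 9.63% and 10.2% of all pairs. Besides OPCs and astrocytes, Itgav was called lower at 7 dpi in endothelial cells (292 against 183 CPM), mural cells (333 against 193) and excitatory neurons (87.4 against 42.0). The endothelial and mural calls rest on 37 and 40 nuclei of Tgfbr2-cKO. The excitatory neuron call rests on 57 Ctrl nuclei with 51 Itgav UMIs, and the median over all genes tested in this class was -0.34. Over all nuclei Itgav, Itgb5 and Itgb8 were at -2.37, -2.65 and -1.77, and at the Ctrl class make-up at -0.38, -0.10 and -0.08.

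Of the carriers of Itgb8 at 7 dpi, fibroblasts were at 0.05, astrocytes at -0.41 and oligodendrocytes at -1.12 in Tgfbr2-cKO, the last a call with 41 Ctrl nuclei. At 21 dpi astrocytes were at -0.03. Itgb5 in fibroblasts, the cells targeted by the deletion, was 246 CPM in Ctrl and 171 in the knockout at 7 dpi. The 21 dpi levels were 186 and 122 CPM, a call at -0.60. At the sub-cluster make-up of Ctrl it was -0.14, over sub-clusters that held 57.3% of the fibroblast UMIs of the Tgfbr2-cKO library. Itgb5 was also called lower at 21 dpi in endothelial cells (136.9 against 37.4 CPM) and OPCs (16.4 against 6.04 CPM). Inhibitory neurons were called lower for Itgav (91.4 against 54.1 CPM), Itgb1 (137.6 against 90.0) and Itgb5 (86.5 against 29.6). In Tgfbr2-cKO these neurons held 267 nuclei of cluster 14, 41 of the Drd2-led cluster 20 and 149 of cluster 23. The Ctrl numbers were 172, 0 and 50, and the part of make-up in these calls was not tested. Under TMM scaling 3 of the 6 lower calls of 21 dpi stayed. The Itgav and Itgb1 ratios of inhibitory neurons were then -0.52 and -0.38, under 1.5-fold, and an Itgb5 call was lost as well. Under DESeq2 scaling the Itgb1 ratio of inhibitory neurons was -0.47. The higher Itgb5 of T cells (43.9 against 86.9 CPM) turned sign when the 5 nuclei with most UMIs were left out, at -0.44.

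Between 7 and 21 dpi in Ctrl, 6 of 42 pairs were higher and 12 lower, where 14.9% and 9.19% of all pairs were called. The higher pairs included Itgb5 in endothelial cells and Itgav and Itgb5 in inhibitory neurons, each of which turned sign under a setting given below. Itgav was lower in 5 classes: myeloid cells (862 and 467 CPM, -0.88), astrocytes (345 and 182, -0.92), mural cells (333 and 183, -0.87), endothelial cells (292 and 165, -0.83) and OPCs (394 and 259, -0.60). Itgb3 was lower in endothelial cells (-1.29), mural cells (-1.15), fibroblasts (-1.09) and myeloid cells (-0.88). In fibroblasts Itgb3 was 0.17 at the 7 dpi sub-cluster make-up, opposite in sign. T cells had 35.5 and 49.6 CPM of Itgb3, with no call (0.48, interval -0.41 to 1.43). Over all nuclei the ratios were -1.16 for Itgav, -1.12 for Itgb3, -0.89 for Itgb5 and 0.39 for Itgb8.

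Itgb8 had log2 ratios over time of 0.31 in astrocytes and -0.46 in fibroblasts, under 1.5-fold in both. In fibroblasts the sign depended on make-up. Within sub-clusters it was called higher at 21 dpi in arachnoid-like (89.9 and 182 CPM) and leptomeningeal-like nuclei (109.6 and 180.5 CPM), and at the 7 dpi make-up the ratio was 0.49. The class level was lower with 75 myofibroblast-like nuclei at 21 dpi against 1007 at 7 dpi.

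Genes of the same pathway were read from fixed lists: 9 genes of the latent TGFβ complex, 12 other alpha subunits, 3 other beta subunits, 8 alpha-v ligands, 10 integrin adaptors and 3 receptors. Their counts in ADWA11 stand beside 8.89% higher and 7.24% lower of all gene and class pairs at 7 dpi, and 6.96% and 8.78% at 21 dpi, and no test was made of the difference. In fibroblasts, 1 gene of the latent complex was higher and 4 were lower in ADWA11 at 7 dpi (median log2 ratio -0.43, all genes 0.08), and 2 were higher and 1 lower at 21 dpi (median -0.01, all genes 0.01). Ltbp1, which anchors latent TGFβ in matrix, was lower at both times, at 274 against 127 CPM and 94.6 against 26.3 CPM. Lrrc32, which holds latent TGFβ at the cell surface, was higher at both, at 6.72 against 13.4 and 8.51 against 14.4 CPM. Tgfbr3, the co-receptor betaglycan, was higher at 356 against 726 and 412 against 633 CPM.

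Of the alpha-v ligands in fibroblasts, 1 of 8 was higher and 3 were lower at 7 dpi (median -0.30, all genes 0.08), and 1 was higher and 5 were lower at 21 dpi (median -0.68, all genes 0.01). Tnc, the matrix protein tenascin C, was lower at both times, at 213 against 88.8 and 103 against 27.5 CPM, and Fbn1, the microfibril protein fibrillin 1, at 579.6 against 346 and 392 against 237 CPM. Among other alpha subunits, Itga8 was higher at both times (69.6 against 123 and 52.0 against 84.4 CPM) and Itga6 lower (15.1 against 9.54 and 8.48 against 4.77 CPM). Of the integrin adaptors, 0 of 9 tested were called in fibroblasts at either time. The fibroblast sums behind these list genes compare different sets of sub-clusters, as given above for Itgb8, and the part of make-up in them was not tested. In Tgfbr2-cKO fibroblasts, Ltbp1 and Tnc were also lower, and Lrrc32, Tgfbr3 and Itga8 higher, at both times against the shared Ctrl libraries.

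In myeloid cells, 0 of 9 genes of the latent complex were higher in ADWA11 and 3 were lower at 7 dpi (median -0.12, all genes 0.04) and 4 at 21 dpi (median -0.33, all genes -0.08). Background shares called lower over all classes were 7.24% and 8.78%. The alpha-v ligands had 1 higher and 5 lower at 7 dpi, with a median of -0.78, and 1 higher and 4 lower at 21 dpi, with a median of -0.85. Fn1, fibronectin, was 225 against 56.4 CPM and 125 against 29.7 CPM. Tgfbr1, the type 1 receptor, was 1070 against 512.5 and 1203 against 405 CPM. Itga6, a laminin receptor chain, and Itga5, the fibronectin receptor chain, were lower at both times, and Itga9 was higher at 114.5 against 304 and 139.6 against 382 CPM.

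The adaptor Vcl was higher in myeloid cells at both times, at 44.3 against 71.9 and 56.5 against 125 CPM. Itgb5 was therefore 1 of several adhesion and TGFβ pathway genes that were lower in the myeloid class, whose sub-clusters differed between the libraries. Fbn1, Tgfb2, Ltbp1, Parva and Fermt2 were also lower at both times, each at under 14 CPM in myeloid cells.

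In astrocytes, Ltbp1 (64.7 against 35.2 and 64.1 against 20.2 CPM), Ltbp2 (25.7 against 4.5 and 13.7 against 8.65), the alpha-v ligand Edil3 (164.5 against 99.0 and 100.7 against 56.2) and Itga5 (34.3 against 15.1 and 53.0 against 27.0) were lower in ADWA11 at both times. The lists as a whole were mixed. In the latent complex 0 of 8 were higher and 2 lower at 7 dpi (median 0.002), and 1 and 2 at 21 dpi (median -0.06). In the other alpha subunits 0 of 12 were higher and 2 lower (median -0.54), then 2 and 1 (median 0.07). In the alpha-v ligands 0 of 7 were higher and 2 lower (median -0.20), then 1 and 3 of 8 (median -0.49). In OPCs at 7 dpi, 5 of 11 other alpha subunits were lower in ADWA11, with a median of -0.86 where all genes had -0.02. At 21 dpi 0 of 4 were called (median -0.05), and in Tgfbr2-cKO at 7 dpi, against the same Ctrl library, 4 of 10 were lower and 1 higher (median -0.83). Tnc was lower in ADWA11 OPCs at 7 dpi at 92.8 against 54.2 CPM. In T cells Itga4, a homing receptor chain, was higher at both times (784 against 1294 and 1263 against 1981 CPM), as was Nrros. Itga1, a collagen receptor chain, was lower (393 against 235 and 507 against 202 CPM), and Fn1 was lower as well. The T cell class differed in make-up at 21 dpi, with 51 of 293 Ctrl and 317 of 1036 ADWA11 nuclei in a Cd8a- and Gzmk-led sub-cluster, 21 and 181 in the Klra8-led one and 52 and 17 in an Il23r-led one, and the part of this in these values was not tested. Endothelial cells had more Itga9 and Tnc and less Ltbp1 and Itga11 at both times, and mural cells less Tgfbr1.

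The genes most like each member across 68 sums of class and library were listed as a description, over 13062 genes and on log2(CPM + 1). The sums share libraries and depth. For Itgav they were Wdr26 (r = 0.84), Wipf1 (0.83) and Ripk1 (0.82). For Itgb5 they were Rab3il1 (0.86), Pign (0.86) and Ufsp2 (0.86), and for Itgb8 Rgma (0.83), Adamtsl3 (0.83) and Dnah7b (0.82). Itgb1 was most like Stk24 (0.92), Adgre5 (0.91) and Tpm4 (0.91), and Itgb3 like Esyt2 (0.77), Ugcg (0.77) and Peak1 (0.76). Itgb6, at a mean of 0.47 CPM, had no gene above 0.55.

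The 4 unnamed clusters held the members as well. Cluster 3, with fibroblast and myeloid markers raised and a median depth 0.33 of that of its library, had 82.2 to 130 CPM of Itgb8 and 224 to 473 CPM of Itgb5. Cluster 16 had neutrophil markers raised and the dendritic cell marker Clec9a among its leading genes. Its 1377 nuclei were also among those of the myeloid sub-clusters, where the neutrophil-like one held 301 nuclei. Cluster 16 had Itgb5 at 320.1 and 89.6 CPM in Ctrl and ADWA11 at 7 dpi and 243 and 70.1 CPM at 21 dpi, the same order as in the myeloid class. Cluster 24, led by division genes with T cell and fibroblast markers raised, had 104.7 to 306 CPM of Itgb8. Cluster 21, led by the bone genes Bglap, Ibsp and Sp7 with collagen markers raised, had 25.9 to 204 CPM of Itgb8, below the fibroblast range in 3 of 4 libraries.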

How the data were processed

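Droplet 3' libraries (Chromium v3.1) were counted by the authors with Cell Ranger on mm10. The version was 7.2.0 by the headers of the deposited matrices and by the methods of the paper for this experiment. The submitters' processing notes give 7.1.0. Whether intronic reads were included was not given in the sources used here. The deposited values are raw UMI counts per gene and barcode. The members and gene lists were chosen with earlier results of these data known.

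In each library, barcodes in the lowest or highest 2.5% for UMIs or genes, or the highest 2.5% for mitochondrial share, were removed (61917 of 67360 barcodes stayed). Nuclei were clustered with Seurat 5.3.0 and sctransform 0.4.2 (R 4.3.3; 3000 variable genes without members and pathway genes, 30 components, resolution 0.5; sub-clusters at 0.2 for fibroblasts, 0.25 for myeloid and oligodendroglial cells, 0.5 for T cells). A cluster took a class name from at least 3 raised markers (detected in at least 5% of nuclei, at 2 times the level elsewhere) and its 10 leading genes. Simulated doublets marked 0.8% of nuclei per 1000 barcodes. The 3 sub-clusters with over 50% of marked nuclei (1439 nuclei) were left out, and 4791 marked nuclei stayed. Nuclei with Xist and no Y-linked UMIs were assigned to the female mouse of a library, the reverse to the male, and the rest to neither.

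Levels are CPM of summed non-mitochondrial UMIs with exact Poisson 95% intervals. Ratios have exact conditional binomial intervals. Intervals and limits for 0 counts (3 counts) cover counting error only. No edgeR or DESeq2 test was run, since each group had 1 library; edgeR 4.0.16 (TMM) and DESeq2 1.42.0 gave other scalings. The named genes were the 6 members, list genes past 1.5-fold in the same direction at both times, and the 3 genes with the highest correlation to each member. Gene spans and exon lengths are of GENCODE M21 on GRCm38. The ratio calls were tried on simulated counts that held counting error only, which cannot speak to differences between mice or libraries. Protein sequences were not used here.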

Additional observations from a re-analysis of the deposited data

Results flagged for a closer look

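The log2 ratio of ADWA11 over Ctrl for Itgb3 had opposite signs at the 2 times in 2 unnamed clusters. In cluster 21, led by bone genes, it was -2.56 at 7 dpi (60.7 CPM in Ctrl and 10.3 in ADWA11) and 1.23 at 21 dpi (7.50 and 17.6 CPM). In cluster 3, the shallow cluster with fibroblast and myeloid markers, it was -0.96 at 7 dpi (24.3 and 12.5 CPM) and 0.70 at 21 dpi (9.81 and 16.0 CPM). The difference between the times was not tested.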

How the results depend on the processing

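No paired analysis was possible because the groups compared had 1 library each and so shared fewer than 2 replicate numbers. Depth, class names rebuilt from markers, free RNA and 2 mice per library limit all values. Scaling moved the median of all genes by over 0.1 on the log2 scale in 8 of 10 classes and over all nuclei (0.39) for Tgfbr2-cKO at 7 dpi, by -0.20 in mural cells to 0.43 in inhibitory neurons, and in inhibitory neurons at 21 dpi (0.23). It did so for ADWA11 in oligodendrocytes at 7 dpi (0.16) and myeloid cells at 21 dpi (0.11), and for Ctrl over time in endothelial (-0.13) and myeloid cells (-0.11) and over all nuclei (-0.13, DESeq2). Of 61 called pairs of member and class, 61 kept their direction under TMM and 61 under DESeq2 scaling, with 54 and 56 still called. Still called were 47 of 61 as a mean per nucleus, 51 of 59 without marked doublets, 34 of 44 in female and 27 of 40 in male nuclei, 42 of 52 without the 5 top nuclei, 53 of 61 under log-normalised clustering, 57 of 61 at resolution 1.0 and 14 of 23 at the Ctrl sub-cluster make-up, where 17 kept their direction.

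The ratio of Itgb5 in myeloid cells under ADWA11 was, at 21 dpi, -1.11 under TMM, -1.13 under DESeq2 scaling, -1.09 in female and -1.31 in male nuclei, -1.29 at clustering resolution 1.0 and -1.67 at the Ctrl sub-cluster make-up, a setting added after the data were seen. At 7 dpi it was -1.38 in female and -1.30 in male nuclei, -1.29 at resolution 1.0 and -1.27 at the Ctrl make-up. Itgav in myeloid cells at 21 dpi was -0.80 under TMM, -0.81 under DESeq2, -0.85 as a mean per nucleus, -0.97 in male nuclei, -0.82 at resolution 1.0 and 0.29, reversed, at the Ctrl make-up. At 7 dpi it was -0.40 in female and -0.40 in male nuclei, -0.52 at resolution 1.0 and -0.16 at the Ctrl make-up.

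Itgb8 over all nuclei at 21 dpi was -0.20 in female and -0.62 in male nuclei and -0.39 over all barcodes, and at 7 dpi 0.11 under DESeq2 and 0.28 in female nuclei. In astrocytes it was -0.28 at 21 dpi without marked doublets and 0.44 at 7 dpi in male nuclei. In fibroblasts it was 0.28 in female nuclei and -0.01 at the Ctrl make-up at 21 dpi, and 0.13 under DESeq2, 0.39 in female and 0.028 in male nuclei and 0.29 at the Ctrl make-up at 7 dpi.

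Other calls that reversed under ADWA11 were Itgb8 in T cells at the Ctrl make-up (-0.49 at 21 and -1.82 at 7 dpi, both without the Foxp3-led sub-cluster that held most of it in ADWA11, and over 68.0% and 58.5% of the ADWA11 T cell UMIs), in endothelial cells in male nuclei (0.34) and in mural cells as a mean per nucleus (-0.36), both at 21 dpi. Itgb3 in myeloid cells was 0.26 in female nuclei and 1.72 at the Ctrl make-up at 21 dpi, and 0.21 at the Ctrl make-up at 7 dpi. Over time in Ctrl, Itgb5 reversed in endothelial cells without marked doublets (-0.093) and in inhibitory neurons in female nuclei (-0.11) and under log-normalised clustering (-0.16). Itgav in inhibitory neurons was -0.079 in female nuclei, and Itgb3 in fibroblasts 0.17 at the Ctrl make-up. In Tgfbr2-cKO at 21 dpi, Itgb5 in T cells was -0.21 as a mean per nucleus, -0.44 without the 5 top nuclei, -1.30 under log-normalised clustering and -0.82 at resolution 1.0, and Itgb8 in fibroblasts -0.25 in female nuclei. At 7 dpi Itgb5 was 0.45 in inhibitory neurons of the male and 0.52 in oligodendrocytes without the 5 top nuclei.

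Counts of called pairs also moved. For ADWA11, male nuclei gave 1 higher and 6 lower of 27 pairs that met the minimum at 7 dpi (37 in all nuclei) and 5 lower of 29 at 21 dpi, and female nuclei 6 higher and 5 lower of 34 at 21 dpi (38 in all nuclei). For Tgfbr2-cKO at 7 dpi, higher counts were 1 as a mean per nucleus, 2 without marked doublets, 1 in female and 1 in male nuclei and 4 without the 5 top nuclei, and lower counts were 18 of 45 as a mean per nucleus and 5 of 28 in male nuclei. At 21 dpi, 1 pair was higher under TMM, DESeq2, female nuclei, without the 5 top nuclei, log-normalised clustering and resolution 1.0, 4 in male nuclei, and 3 were lower under TMM. Over time in Ctrl, 1 was higher as a mean per nucleus, 3 in female and 2 in male nuclei, and 7 of 29 were lower in male nuclei. Counts by mouse rest on fewer pairs than those of all nuclei. The cause was not tested.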
